A study of Homo sapiens with 12 samples.

Results

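The genes of 9 receptor tyrosine kinases and of the neurotrophin receptor NGFR were followed in 624Mel, an established human melanoma cell line, across 4 conditions of 3 libraries each. They were taken by symbol from the 40173 gene IDs of the expression table, and all 10 were found: AXL, EGFR, NGFR, ERBB3, PDGFRB, KIT, MET, FGFR1, IGF1R and EPHA2. The conditions were a control siRNA (siCTRL), siCTRL with interferon gamma (siCTRL + IFNγ), an siRNA against the melanocyte transcription factor MITF (siMITF), and siMITF with IFNγ. IFNγ was given at 5 ng/mL for 24 h, starting 24 h after transfection, and RNA was taken 48 h after transfection. Every condition therefore carried a transfected siRNA, no untransfected cells were included, and MITF was lowered by 1 siRNA in 1 line. Levels are in TPM, a share of the library's RNA corrected for transcript length, so that levels of different receptors can be set side by side.

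Receptor tyrosine kinases are membrane proteins that pair up when a ligand binds, phosphorylate each other and signal through the RAS-ERK and PI3K pathways. NGFR, also known as p75NTR or CD271, has no kinase domain, belongs to the tumour necrosis factor receptor family and marks neural crest cells. Melanocytes depend on KIT, whereas AXL, EGFR, PDGFRB and NGFR are receptors known from melanoma cells that have lost melanocytic features and from cells that tolerate drug treatment.

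MITF, the siRNA target, was at 187, 229 and 217 TPM in siCTRL and at 36.0, 49.7 and 41.7 TPM in siMITF. With IFNγ the levels were 158, 246 and 243 TPM in siCTRL and 37.5, 55.1 and 51.3 TPM in siMITF. The libraries did not overlap in either pair, and the log2 change of TPM + 1 was -2.29 (SE 0.186, adjusted p = 1.16e-06) without and -2.14 (SE 0.186, adjusted p = 2.39e-06) with IFNγ in limma, a linear model fitted across all tested genes. The 7 melanocytic marker genes were all present, with a summed level of 7046 to 9403 TPM in the siCTRL conditions and 1949 to 2429 TPM in the siMITF conditions. The 5 neural crest and glial markers were also all present, at 575 to 650 TPM in the siCTRL conditions and 832 to 965 TPM in the siMITF conditions. Of the markers of other cell types, 2 of 6 fibroblast genes (LUM and PDGFRA, also on the receptor list below), 1 of 5 keratinocyte genes (KRT10), 1 of 5 immune genes (LYZ) and 0 of 4 endothelial genes reached a mean of 2 TPM in a condition. The fibroblast sum was 6.22 to 7.83 TPM in siCTRL and 10.3 to 12.5 TPM in siMITF, and with IFNγ 4.004 to 4.33 and 6.38 to 7.24 TPM. The immune sum was 3.00 to 3.19 TPM in siCTRL and 4.62 to 5.55 TPM in siMITF, and with IFNγ 1.96 to 2.31 and 3.93 to 4.35 TPM, so both sums moved with siMITF. KRT1 and CD3E were listed at 0 in all 12 libraries. The part of other cell types in the receptor results was not tested.

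In siCTRL cells the receptors formed 3 tiers. KIT, the stem cell factor receptor, had a mean of 83.5 ± 8.40 TPM (SD, n = 3), MET, the hepatocyte growth factor receptor, 71.3 ± 6.95 TPM, and ERBB3, a neuregulin receptor that signals as a partner of other ERBB proteins, 68.3 ± 2.15 TPM. Neighbours within this tier overlapped between libraries, and the tier lay clear of FGFR1, a fibroblast growth factor receptor, at 19.7 ± 1.77 TPM, IGF1R, the insulin-like growth factor receptor, at 15.0 ± 3.63 TPM, and EPHA2, an ephrin-A receptor, at 11.03 ± 1.25 TPM. The remaining receptors were at or near 0, with NGFR at 0.138 ± 0.0329 TPM, AXL, the receptor of GAS6, at 0.104 ± 0.0218 TPM, PDGFRB at 0.0116 ± 0.0141 TPM and EGFR at 0.00100 ± 0.00173 TPM. NGFR and AXL overlapped, as did PDGFRB and EGFR. With IFNγ the order of the 6 higher receptors was the same. In siMITF cells the order changed. ERBB3 stood alone at the top with 122 ± 2.95 TPM, and KIT (27.7 ± 3.07 TPM), MET (27.3 ± 2.56 TPM) and FGFR1 (24.4 ± 1.55 TPM) followed, each overlapping the next. EPHA2, at 21.1 ± 1.25 TPM, then lay above IGF1R at 15.0 ± 4.52 TPM with no overlap. With IFNγ ERBB3 again stood alone at 99.8 ± 6.73 TPM, followed by KIT (43.2 ± 5.91 TPM) and MET (34.1 ± 6.29 TPM), which overlapped each other.

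Of the 10 receptors, 6 reached the minimum of 2 TPM in the mean of at least 1 condition and were tested with the 12773 gene IDs that did, and 4 (AXL, EGFR, NGFR and PDGFRB) did not. A gene is said to have risen or fallen where the Benjamini-Hochberg adjusted p from limma on log2(TPM + 1) was under 0.05. After siMITF without IFNγ 4 of the 6 tested receptors had changed, 2 up and 2 down, against 34.8% of all tested genes (21% up and 13.8% down). With IFNγ the same 4 receptors changed in the same directions, against 33.1% of all tested genes (18.4% up and 14.7% down). The median log2 change of the 6 was 0.14 without and -0.23 with IFNγ, and that of all tested genes 0.06 and 0.03. The libraries of siCTRL and siMITF did not overlap for 5 of 6 receptors without IFNγ, where 55% of all tested genes did not overlap, and for 4 of 6 with IFNγ, where 38.3% did not.

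**Figure D1:**
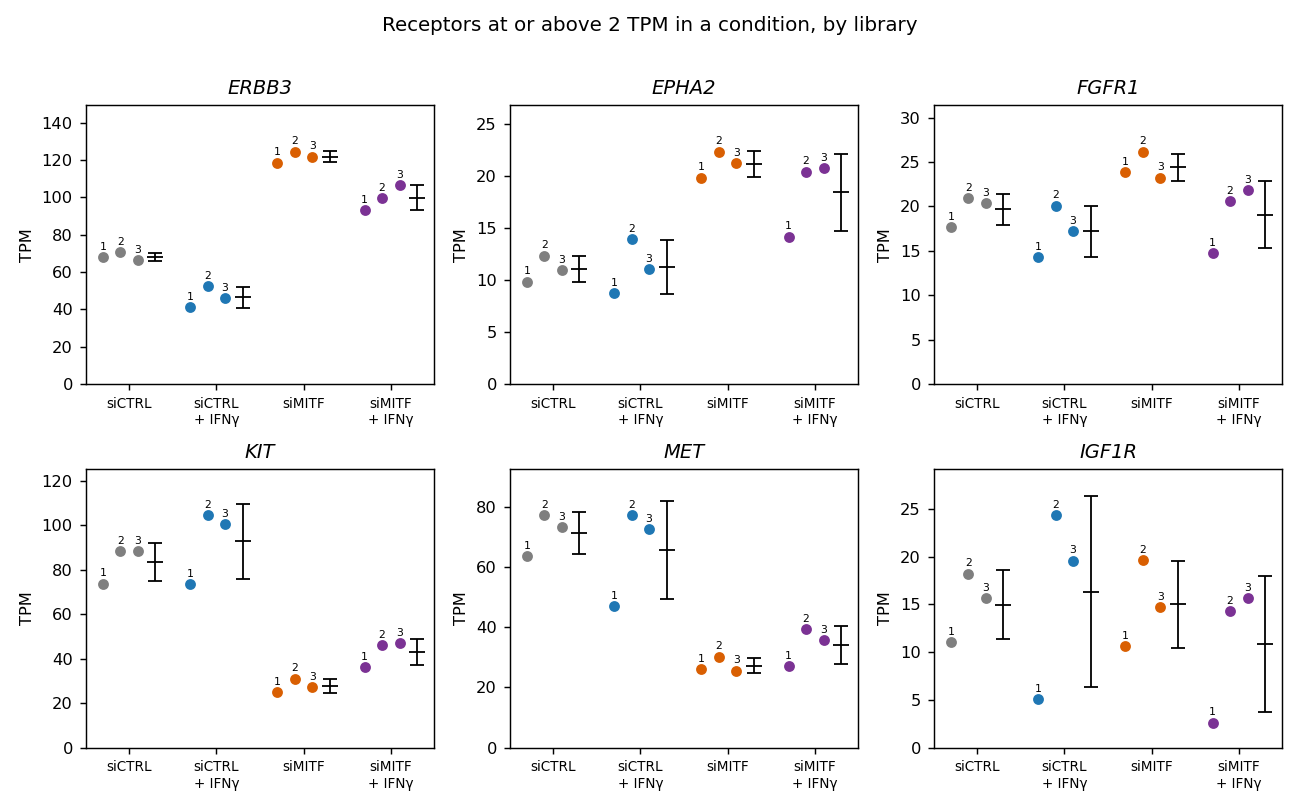
TPM of the 6 tested receptors in each of the 12 libraries, by condition; points carry the replicate number, and the bar beside them is the mean ± SD of 3 libraries. ERBB3 and EPHA2 lay higher and KIT and MET lower in both siMITF conditions, and IGF1R was lowest in the replicate 1 library of both IFNγ conditions.

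KIT and MET fell with siMITF. KIT (ENSG00000157404, chr4:54657267-54740783 on the plus strand of GRCh38) was at 73.8, 88.3 and 88.4 TPM in siCTRL and at 25.0, 31.0 and 27.2 TPM in siMITF. With IFNγ it was at 73.6, 104 and 101 TPM in siCTRL and at 36.4, 46.1 and 47.1 TPM in siMITF. Every siMITF library lay below every siCTRL library in both pairs. The log2 change was -1.56 (SE 0.144, adjusted p = 3.75e-06) without and -1.08 (SE 0.144, adjusted p = 9.57e-05) with IFNγ, ratios of the means of 0.332 and 0.465. MET (ENSG00000105976, chr7:116672196-116798377, plus strand) was at 63.7, 77.2 and 73.2 TPM in siCTRL and at 26.0, 30.2 and 25.6 TPM in siMITF, and with IFNγ at 46.9, 77.2 and 72.7 TPM and at 27.2, 39.4 and 35.8 TPM. The groups again did not overlap. The log2 change was -1.35 (SE 0.178, adjusted p = 7.53e-05) without and -0.91 (SE 0.178, adjusted p = 0.00177) with IFNγ. The study also asked for an absolute log2 change of at least 1, which KIT and MET passed without IFNγ and KIT alone of the receptors that fell passed with it; 2.88% and 2.57% of all tested genes fell by that rule.

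MITF binds E-box sequences, CACGTG among them, and the promoters of the receptors that fell together are shown for that reason. RefSeq (GRCh38.p14) gave a promoter, here 250 bases before to 50 bases after the start, for 7 of the 10 receptors, not for NGFR, ERBB3 and FGFR1. Capitals mark CACGTG. A second E-box, spelled CATGTG, and the AP-1 motif, spelled TGAGTCA, were searched as well, each on both strands, and the marked CACGTG was the single match in these sequences. The MET promoter lay at chr7:116671946-116672245 on the plus strand and the KIT promoter at chr4:54657707-54658006 on the plus strand.
MET: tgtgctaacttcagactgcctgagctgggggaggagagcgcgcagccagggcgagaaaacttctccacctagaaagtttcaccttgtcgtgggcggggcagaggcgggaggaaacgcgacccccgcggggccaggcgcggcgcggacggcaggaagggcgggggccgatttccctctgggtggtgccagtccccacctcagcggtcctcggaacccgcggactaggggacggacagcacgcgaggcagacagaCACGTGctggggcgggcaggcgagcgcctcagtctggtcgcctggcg
KIT: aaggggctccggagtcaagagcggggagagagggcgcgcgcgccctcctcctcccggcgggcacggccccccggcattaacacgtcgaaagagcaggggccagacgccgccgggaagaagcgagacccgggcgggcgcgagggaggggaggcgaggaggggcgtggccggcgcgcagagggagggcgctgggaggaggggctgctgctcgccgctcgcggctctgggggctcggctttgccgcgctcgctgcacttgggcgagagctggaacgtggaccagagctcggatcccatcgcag
The match in MET began 4 bases after the start, within the first exon of the RefSeq transcript. Among 35116 RefSeq promoters of this length 7.26% held CACGTG, 11.1% CATGTG and 4.95% the AP-1 motif. The listed promoters of EPHA2, IGF1R and PDGFRB held none of these motifs. AXL and EGFR each had a second listed promoter with matches, 1 CATGTG in AXL, and 1 CATGTG and 2 AP-1 motifs in EGFR, of which CATGTG overlapped the first AP-1 motif. A match describes the letters only, and binding was not measured.

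ERBB3 and EPHA2 rose with siMITF. ERBB3 (ENSG00000065361, chr12:56076799-56103505, plus strand) was at 68.2, 70.5 and 66.2 TPM in siCTRL and at 119, 124 and 122 TPM in siMITF, and with IFNγ at 41.1, 52.4 and 46.2 TPM and at 93.3, 99.5 and 107 TPM. These libraries lay close together within a condition and did not overlap between siRNAs. The log2 change was 0.82 (SE 0.0870, adjusted p = 1.2e-05) without and 1.09 (SE 0.0870, adjusted p = 1.16e-06) with IFNγ, ratios of the means of 1.78 and 2.14. Only the change with IFNγ passed the size rule, by which 3.12% of all tested genes rose there. EPHA2 (ENSG00000142627, chr1:16124337-16156069, minus strand) was at 9.84, 12.3 and 10.9 TPM in siCTRL and at 19.8, 22.3 and 21.2 TPM in siMITF, with log2 change 0.88 (SE 0.166, adjusted p = 0.00126). With IFNγ it was at 8.72, 13.9 and 11.02 TPM and at 14.2, 20.4 and 20.7 TPM. The groups did not overlap there either, although the lowest siMITF library lay just above the highest siCTRL library, and the log2 change was 0.67 (SE 0.166, adjusted p = 0.00777).

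FGFR1 and IGF1R did not pass the test with siMITF. FGFR1 was at 17.7, 21.0 and 20.4 TPM in siCTRL and at 23.8, 26.2 and 23.2 TPM in siMITF, with no overlap. The log2 change was 0.30 (SE 0.147, 95% interval -0.02 to 0.62, adjusted p = 0.138), and it passed (adjusted p = 0.0212) when a term for the replicate number, the replicate block, was added to the model. It also passed with quantile normalization (adjusted p = 0.0297), median centring (0.0234), only the conditions compared (0.02), without both IFNγ libraries numbered 1 (0.0143), and with length and GC trends removed with the block (0.0122). With IFNγ the levels of 14.3, 20.1 and 17.3 TPM in siCTRL overlapped those of 14.8, 20.6 and 21.8 TPM in siMITF, at a log2 change of 0.13 (adjusted p = 0.536). IGF1R was at 11.1, 18.2 and 15.6 TPM in siCTRL and at 10.6, 19.7 and 14.7 TPM in siMITF, with a log2 change of -0.01 and a 95% interval from -1.27 to 1.25 (adjusted p = 0.992). With IFNγ it was at 5.11, 24.3 and 19.6 TPM in siCTRL and at 2.63, 14.3 and 15.7 TPM in siMITF. The libraries overlapped in both pairs, and the interval with IFNγ, around a log2 change of -0.60 (adjusted p = 0.475), ran from -1.86 to 0.67.

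**Figure D2:**
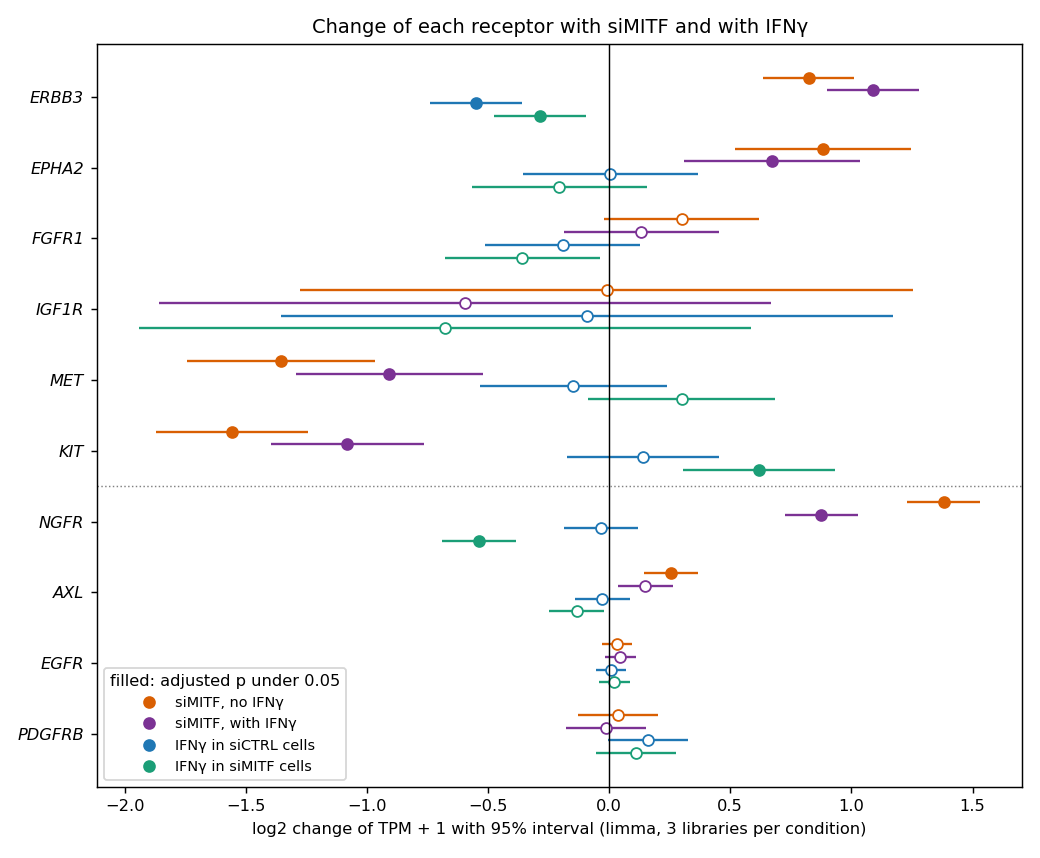
log2 change of TPM + 1 (horizontal axis) of each receptor for siMITF against siCTRL without and with IFNγ and for IFNγ in siCTRL and in siMITF cells; points are limma estimates over 3 libraries per condition, lines 95% intervals, and filled points have an adjusted p under 0.05. Above the dotted line the p-values are adjusted over 12773 gene IDs, and below it, for receptors under 2 TPM, over 29003; KIT and MET lie left of 0 and ERBB3, EPHA2 and NGFR right of 0 for siMITF in both IFNγ states.

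IGF1R was lowest in the replicate 1 library of every condition. It was at 5.11 TPM in replicate 1 of siCTRL + IFNγ and at 2.63 TPM in replicate 1 of siMITF + IFNγ, a log2 deviation of -1.27 and -1.43 from the mean of the condition. All 6 tested receptors lay below their condition mean in both of these libraries, and also in replicate 1 of siCTRL and of siMITF. In the tenth of tested genes with the longest transcripts the same libraries lay at a median log2 deviation of -0.21 and -0.15, and in the tenth with the highest GC content at -0.10 and -0.22. By mean transcript length IGF1R was at least as long as 63.5% of tested genes, KIT as 93.0% and MET as 90.5%. With length and GC trends removed IGF1R passed no limma test either. The part of transcript length and GC content in its low values in these libraries was not tested. Without replicate 1 of siMITF + IFNγ the log2 change of IGF1R with siMITF under IFNγ was 0.12 (adjusted p = 0.874).

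The receptors under 2 TPM were compared by an exact two-sided permutation test that exchanged siRNA labels within each IFNγ state, or IFNγ labels within each siRNA, over 400 arrangements with a smallest p of 0.005; these p-values are unadjusted. The limma fit without the minimum, on 29003 gene IDs, gave adjusted p-values. It called 16.6% of the gene IDs for siMITF without IFNγ, 16.1% with IFNγ, 5.17% for IFNγ in siCTRL cells and 8.74% for IFNγ in siMITF cells.

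NGFR (ENSG00000064300, chr17:49495293-49515008, plus strand) rose with siMITF from a level near 0. It was at 0.112, 0.175 and 0.127 TPM in siCTRL and at 1.79, 2.16 and 1.95 TPM in siMITF, and with IFNγ at 0.0736, 0.149 and 0.115 TPM and at 0.883, 1.05 and 1.21 TPM. Every siMITF library lay above every siCTRL library, and the siMITF libraries with IFNγ all lay below those without. The ratio of the means was 14.3 without and 9.31 with IFNγ, and the log2 change of TPM + 1, which understates changes at such levels, was 1.38 (SE 0.0676, adjusted p = 1.06e-06) and 0.88 (SE 0.0676, adjusted p = 2.01e-05). The exact permutation test over both IFNγ states gave the smallest p it allows, 0.005. In siMITF cells NGFR fell with IFNγ (log2 change -0.54, adjusted p = 8.57e-04, ratio of the means 0.532), and in siCTRL cells the log2 change was -0.03 (adjusted p = 0.936). The difference between these changes, -0.50, had an adjusted p of 0.0733, and of 0.0444 with the replicate block; without the block 0.486% of these gene IDs passed that test. At the siCTRL level of 0.138 TPM the pseudocount of 1 leaves little room for a fall on this scale, so the difference is in part set by it; the ratio of the means with IFNγ was 0.814 in siCTRL cells and 0.532 in siMITF cells. For IFNγ over both siRNAs the exact permutation test gave p = 0.025.

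AXL did not exceed 0.343 TPM in any library. It was at 0.0894, 0.129 and 0.0941 TPM in siCTRL and at 0.343, 0.316 and 0.297 TPM in siMITF, with no overlap, a ratio of the means of 3.06 and a log2 change of 0.26 (adjusted p = 0.00624). With IFNγ it was at 0.0855, 0.0824 and 0.0825 TPM and at 0.110, 0.317 and 0.189 TPM, still without overlap, at a log2 change of 0.15 (adjusted p = 0.0781). The exact permutation test gave p = 0.005 for siMITF and p = 0.055 for IFNγ. EGFR was at 0 to 0.0860 TPM, with 4 of the 12 libraries listed at 0, and no limma test of it passed. Its exact permutation p for siMITF was 0.025, and it was 0.0625 when labels were exchanged only between libraries of the same number and 0.05 to 0.15 without any 1 of the siCTRL or siCTRL + IFNγ libraries or siMITF + IFNγ replicate 2. PDGFRB was at 0 to 0.262 TPM, and the highest library of both IFNγ conditions was replicate 2. Its exact permutation p for IFNγ was 0.02 (0.0625 between libraries of the same number) and for siMITF 0.79, and no limma test of it passed. The exact permutation p for IFNγ was 0.055 to 0.075 without any 1 of siCTRL replicates 2 and 3, siMITF replicates 1 and 2 and siMITF + IFNγ replicate 2. TPM keeps no read numbers, so how few reads lie behind these levels is unknown.

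**Figure D3:**
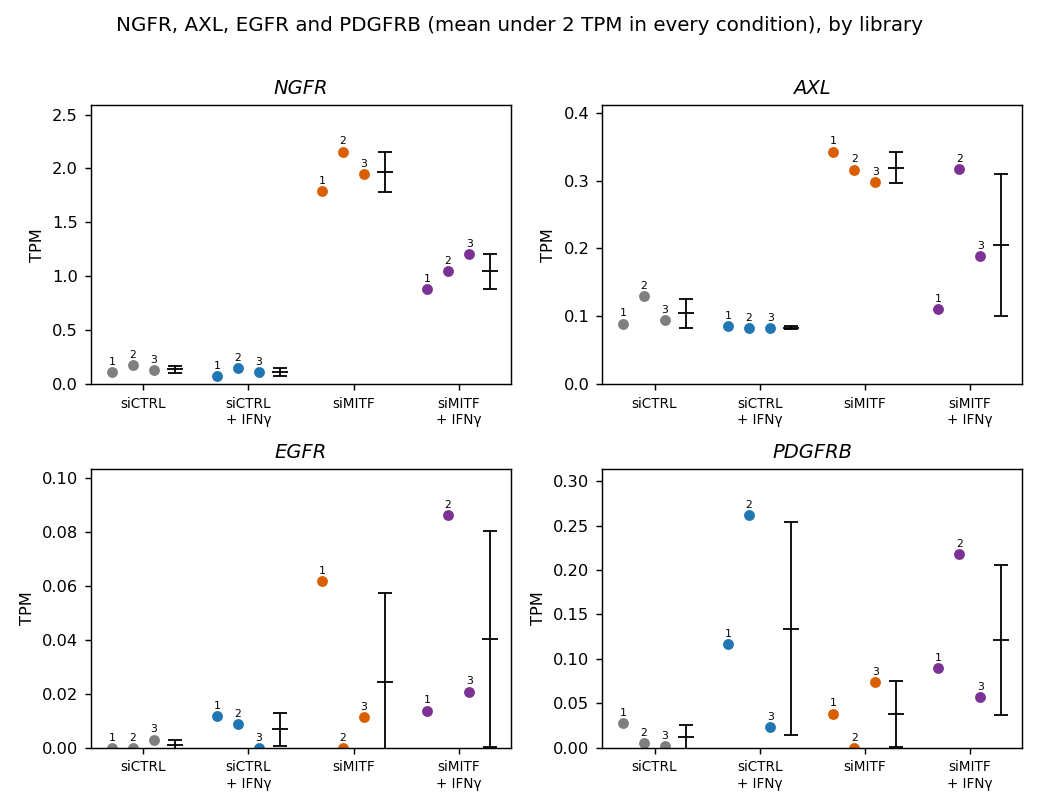
TPM of NGFR, AXL, EGFR and PDGFRB in each of the 12 libraries, by condition, each on its own axis; points carry the replicate number, and the bar beside them is the mean ± SD of 3 libraries, cut at 0. NGFR reached 1.79 to 2.16 TPM in siMITF, whereas no library exceeded 0.343 TPM for AXL, 0.262 TPM for PDGFRB or 0.0860 TPM for EGFR.

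IFNγ was compared within each siRNA state. In siCTRL cells 1 of the 6 tested receptors changed, against 12.9% of all tested genes, and in siMITF cells 2 of 6 did, against 20.2%. With the replicate block these counts were 1 and 4, against 25.7% and 35.7% of all tested genes in the same fit. These comparisons share the siCTRL and siMITF libraries with the siRNA comparisons above. The median log2 change of the 6 was -0.12 and -0.24, and that of all tested genes -0.07 and -0.10. The libraries did not overlap for 1 and 3 of the 6 receptors, against 29.7% and 40.5% of all tested genes.

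ERBB3 fell with IFNγ in both siRNA states. The log2 change was -0.55 (SE 0.0870, adjusted p = 9.71e-04) in siCTRL cells and -0.28 (SE 0.0870, adjusted p = 0.0369) in siMITF cells, ratios of the means of 0.682 and 0.821. The call in siMITF cells was lost in 11 of 28 alternative fits, with an adjusted p of up to 0.122, and 8 of these left out a single library: siCTRL replicate 1 or 3, siCTRL + IFNγ replicate 3, any siMITF library, or siMITF + IFNγ replicate 1 or 2. KIT was at 25.0 to 31.0 TPM in siMITF and at 36.4 to 47.1 TPM in siMITF + IFNγ, and rose there by a log2 change of 0.62 (SE 0.144, adjusted p = 0.00965). In siCTRL cells its log2 change with IFNγ was 0.14 (adjusted p = 0.595). The difference between these changes was 0.48 (SE 0.204, adjusted p = 0.598) and passed with the replicate block (adjusted p = 0.0259). In the fit with the block 2.16% of all tested genes passed the test of that difference.

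MET and FGFR1 did not pass with IFNγ in siMITF cells in the fit without the replicate block, and passed with it. Both also passed there without the block with quantile normalization (adjusted p = 0.032 for MET and 0.0187 for FGFR1) and with median centring (0.0388 and 0.0143), MET without both IFNγ libraries numbered 1 (0.00576), and FGFR1 with length and GC trends removed (0.0411). MET had a log2 change of 0.30 there (adjusted p = 0.26, with the block 0.0352) and of -0.15 in siCTRL cells (adjusted p = 0.662). FGFR1 had -0.36 (adjusted p = 0.108, with the block 0.0122) and -0.19 (adjusted p = 0.461). EPHA2 changed by 0.01 in siCTRL cells (95% interval -0.36 to 0.37) and by -0.20 in siMITF cells (-0.57 to 0.16). IGF1R changed by -0.09 in siCTRL cells and -0.68 in siMITF cells, with intervals from -1.36 to 1.17 and from -1.94 to 0.59. None of the 6 passed the test of the difference between the siRNA states without the block, which 0.947% of all tested genes did. Of the 6, 1 had an unadjusted limma p under 0.05, KIT at 0.0371.

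The other receptors and their pathway were described by lists. Of 49 further receptor tyrosine kinases 18 reached the minimum. Of these 8 rose and 3 fell with siMITF without IFNγ (median log2 change 0.38) and 7 rose and 3 fell with IFNγ (0.26). Of all tested genes 21% rose and 13.8% fell without IFNγ, and 18.4% rose and 14.7% fell with it. The median log2 change of all tested genes was 0.06 and 0.03. With the replicate block 12 rose and 3 fell without IFNγ, and 8 rose and 3 fell with it. In that fit 47.7% and 46.3% of all tested genes were called in either direction. The largest rises among those named by the size rule were in EPHB3, an ephrin-B receptor, and FGFR3. EPHB3 was at 2.68, 1.79 and 1.89 TPM in siCTRL and at 10.7, 11.4 and 9.87 TPM in siMITF, a log2 change of 1.91 (adjusted p = 1.44e-06). FGFR3 went from 0.822, 0.976 and 1.08 TPM to 5.98, 5.81 and 5.495 TPM, a log2 change of 1.79 (adjusted p = 1.18e-06). FLT1, a receptor of vascular endothelial growth factor, rose by 1.14 on the log2 scale (adjusted p = 1.2e-05) from a mean of 0.552 to 2.43 TPM. EPHA5, an ephrin-A receptor like EPHA2, went the other way, from 5.52, 7.26 and 6.18 TPM in siCTRL to 2.19, 3.06 and 2.29 TPM in siMITF, a log2 change of -1.06 (adjusted p = 2.34e-04). Without IFNγ the libraries of these 4 genes did not overlap between the siRNAs. With IFNγ those of EPHA5 did overlap (log2 change -0.47, adjusted p = 0.0401), and that call was lost in 9 of 28 alternative fits.

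With IFNγ 1 of the 18 rose and 2 fell in siCTRL cells, where 12.9% of all tested genes changed in either direction. In siMITF cells 1 rose and 6 fell, where 20.2% of all tested genes changed. With the replicate block 6 and 10 fell, in a fit that called 25.7% and 35.7% of all tested genes in either direction. EPHB3 fell in both states, by a log2 change of -0.82 (adjusted p = 0.00427) and -1.49 (adjusted p = 2.4e-05). FLT1 fell in siMITF cells (-0.75, adjusted p = 8.18e-04), and its log2 change in siCTRL cells was -0.29 (adjusted p = 0.147). Its libraries did not overlap in either state. At such levels the pseudocount of 1 shrinks log2 changes, more so in siCTRL cells, where both genes were lower. The ratios of the means with IFNγ in siCTRL and siMITF cells were 0.363 and 0.298 for EPHB3 and 0.491 and 0.432 for FLT1. EPHA5 was the receptor that rose, from a mean of 6.32 to 9.72 TPM in siCTRL cells (log2 change 0.54, adjusted p = 0.0437) and from 2.52 to 6.70 TPM in siMITF cells (1.13, adjusted p = 2.83e-04). The call of EPHA5 in siCTRL cells was lost in 12 of 28 alternative fits.

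Ligands of the 10 receptors were measured in the same cells. Of 29 ligand genes 12 reached the minimum. Of these 6 rose and 4 fell with siMITF without IFNγ (median log2 change 0.22), and 6 and 3 with IFNγ (0.43). Of all tested genes 34.8% and 33.1% changed in either direction, at a median log2 change of 0.06 and 0.03. With the replicate block 6 rose and 4 fell without IFNγ, and 7 rose and 3 fell with it. In that fit 47.7% and 46.3% of all tested genes were called. KITLG, which encodes the ligand of KIT, rose where its receptor fell. It was at 5.26, 6.21 and 5.36 TPM in siCTRL and at 13.9, 14.1 and 14.01 TPM in siMITF, with no overlap and a log2 change of 1.18 (SE 0.105, adjusted p = 2.48e-06). With IFNγ its mean was 4.11 TPM in siCTRL and 8.91 TPM in siMITF (0.96, adjusted p = 1.69e-05). In siMITF cells KITLG fell with IFNγ by a log2 change of -0.60 (adjusted p = 0.00152), and in siCTRL cells by -0.38 (adjusted p = 0.0332), a call lost in 12 of 28 alternative fits. TGFA, a ligand of EGFR, rose with siMITF from a mean of 0.566 to 2.22 TPM (log2 change 1.05, adjusted p = 2.20e-04). PDGFD, a ligand of PDGFRB, rose from 3.51 to 7.17 TPM (0.85, adjusted p = 4.53e-05). The receptors of these last ligands were among those at or near 0. The 4 ligands that fell without IFNγ were GAS6 and PROS1, ligands of AXL and its relatives, the neuregulin NRG2 and EGF; they lay outside the rule for named genes and are named after their values were seen. Of ligands under the minimum, HGF, the ligand of MET, had a highest condition mean of 0.148 TPM, NRG1, a ligand of ERBB3, of 0.953 TPM and IGF1, a ligand of IGF1R, of 1.10 TPM.

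**Figure D4:**
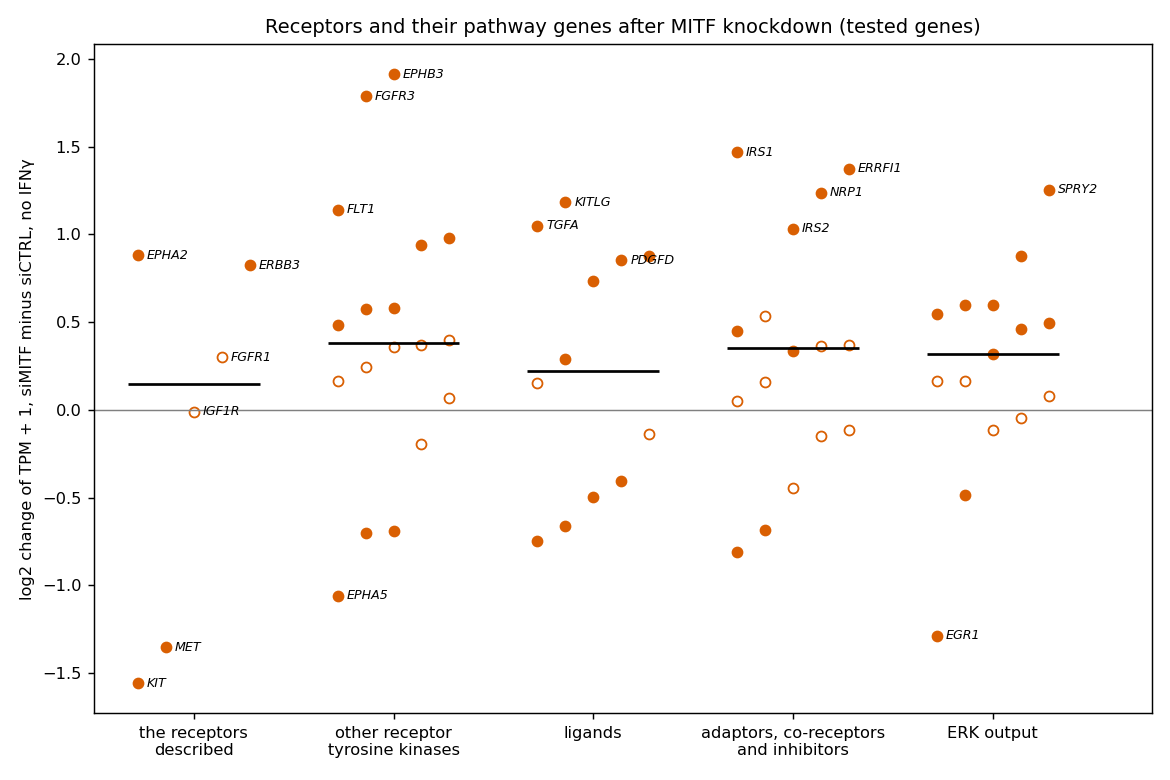
log2 change of TPM + 1 with siMITF without IFNγ (vertical axis) for the tested receptors and the tested genes of 4 pathway lists; each point is 1 gene, filled where the adjusted p is under 0.05, and the black bar is the median of the list. The named list genes run from EPHB3 at 1.91 to EGR1 at -1.29, and KIT and MET lie at -1.56 and -1.35.

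All 16 genes for adaptors, co-receptors and inhibitors of these receptors were tested. In both IFNγ states 6 rose and 2 fell with siMITF (median log2 change 0.35 without and 0.31 with IFNγ). Of all tested genes 34.8% and 33.1% changed in either direction, at a median log2 change of 0.06 and 0.03. With the replicate block 9 rose and 3 fell without IFNγ, and 9 rose and 2 fell with it. In that fit 47.7% and 46.3% of all tested genes were called. IRS1, the adaptor that carries signals of IGF1R and the insulin receptor, was at 7.30, 8.10 and 6.90 TPM in siCTRL and at 20.1, 24.1 and 23.0 TPM in siMITF (log2 change 1.47, adjusted p = 5.91e-06). Its relative IRS2 rose from a mean of 17.5 to 36.8 TPM (1.03, adjusted p = 9.3e-05). These adaptors rose while IGF1R itself did not pass the test. ERRFI1, an inhibitor of the ERBB receptors, was at 21.8, 25.8 and 24.0 TPM in siCTRL and at 62.3, 65.4 and 62.4 TPM in siMITF (1.37, adjusted p = 2.17e-07). NRP1, a co-receptor of vascular endothelial growth factor, rose from 2.53 to 7.30 TPM (1.24, adjusted p = 1.5e-05). With IFNγ 1 of the 16, the receptor inhibitor LRIG1, fell in both siRNA states and none rose. Of all tested genes 12.9% changed in siCTRL and 20.2% in siMITF cells. With the replicate block 5 fell in siCTRL cells, and 6 fell and 1 rose in siMITF cells. That fit called 25.7% and 35.7% of all tested genes. LRIG1 lay outside the rule for named genes and is named after its values were seen.

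Of 15 genes that report ERK activity, 8 rose and 2 fell with siMITF without IFNγ (median log2 change 0.32), and 8 rose and 1 fell with IFNγ (0.24). Of all tested genes 34.8% and 33.1% changed in either direction, at a median log2 change of 0.06 and 0.03. With the replicate block 8 rose and 2 fell without IFNγ, and 9 rose and 2 fell with it. In that fit 47.7% and 46.3% of all tested genes were called. SPRY2, a feedback inhibitor of receptor tyrosine kinase signalling, was at 26.9, 33.9 and 29.8 TPM in siCTRL and at 72.4, 75.0 and 71.9 TPM in siMITF (log2 change 1.25, adjusted p = 3.71e-06). EGR1, an immediate early transcription factor, went from 16.6, 24.4 and 20.8 TPM to 6.61, 9.43 and 7.47 TPM (-1.29, adjusted p = 6.53e-04). The list thus held genes in both directions, and neither gene overlapped between siRNAs. With IFNγ 1 of the 15 rose and 3 fell in siCTRL cells, where 12.9% of all tested genes changed in either direction. In siMITF cells 0 rose and 3 fell, where 20.2% of all tested genes changed. SPRY2 was among those that fell in both states, by -0.46 (adjusted p = 0.0215) and -0.63 (adjusted p = 0.00213) on the log2 scale, and the call in siCTRL cells was lost in 7 of 28 alternative fits. With the replicate block 1 rose and 5 fell in each siRNA state, in a fit that called 25.7% and 35.7% of all tested genes. Transcript levels alone were measured, and receptor protein and phosphorylation were not analysed here. In bulk RNA fewer cells with a transcript and less transcript per cell cannot be told apart.

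The genes whose levels followed each tested receptor most closely over the 12 libraries were ranked by Pearson's r on log2(TPM + 1), as a description. The points share their libraries and condition means. ERBB3 was followed by GNG2, SLC26A2 and PTPRZ1 (each r = 0.99), all of which were higher in siMITF and lower with IFNγ in their condition means. PTPRZ1 ran from 30.4 TPM in siCTRL and 17.4 TPM in siCTRL + IFNγ to 81.7 TPM in siMITF and 52.2 TPM in siMITF + IFNγ. KIT was followed by GLUL, MYO1E and NR4A3 (each r = 0.99), and MYO1E had means of 53.9, 62.0, 14.8 and 24.6 TPM in the same order of conditions. MET was followed by SEC23A, M6PR and TPRG1L (each r = 0.99), FGFR1 by the ephrin-B receptor EPHB4 (0.99), FOXC1 (0.99) and SOGA1 (0.98), and EPHA2 by TPD52L2, ATXN7L3 and LASP1 (each 0.99). IGF1R was followed by LSS, ANKS1A and ZNF282 (each 0.99), whose condition means differed little: ZNF282 was at 17.1, 17.2, 17.4 and 15.3 TPM. IGF1R itself deviated by -1.27 and -1.43 in the replicate 1 libraries of the IFNγ conditions. Its r therefore follows the spread between libraries of a condition more than the treatments.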

How the data were processed

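RNA sequencing of 12 libraries of 624Mel cells was used (TruSeq RNA v2 libraries read on a NovaSeq instrument). The authors trimmed reads with Trimmomatic 0.39, quantified them with kallisto against the Ensembl GRCh38 transcriptome and deposited TPM values per gene. They tested counts with DESeq2 1.26.0. Counts were not analysed here, so depth, counting error and the number of reads behind a value are unknown, and values of 0 are given as listed. TPM is relative: a rise in other transcripts lowers the share of a gene. Column totals were 975336 to 982632 TPM, mitochondrial transcripts took 7.42 to 16.9%, and no libraries were identical.

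Groups came from the sample labels. limma 3.58.1 in R 4.3.3 was fitted on log2(TPM + 1) with a coefficient per condition, an intensity trend and Benjamini-Hochberg adjustment over the 12773 gene IDs whose mean reached 2 TPM in any condition. The test replaced one on counts. On simulated data with 200 genes changed by 1.5 on the log2 scale among 12773, 197 were recovered for siMITF without IFNγ, 195 for IFNγ in siCTRL cells and 186 for the interaction. Of the unchanged genes 6, 10 and 5 were called. The simulated libraries were drawn independently, without the correlation between libraries of the same number described below. Smaller changes were not simulated, so recovery at the size of most receptor changes is unknown. The receptors and gene lists were chosen with earlier results of these data known. Named genes were the 10 receptors, MITF, up to 6 genes per list with the largest change among those with an absolute log2 change of at least 1 and libraries that did not overlap, and the 3 genes most correlated with each tested receptor. Coordinates of promoters are those of GRCh38.p14.

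Libraries of the 4 conditions share replicate numbers. Deviations from the condition means correlated in all 18 pairs of libraries with the same number (r of 0.10 to 0.63, median 0.28), whereas pairs with different numbers had a median of -0.20, so the numbers were taken to pair the libraries, and the fit with the number as a block is given where it changed a call. The study describes its experiments as independent biological replicates, and the labels only number them, so p-values measure the spread between these libraries. The alternatives were other pseudocounts (0.1 and 0.5), no minimum or a mean of 5 TPM, quantile normalization, median centring, leaving out mitochondrial genes, summing by symbol, no intensity trend, only the conditions compared, an adjusted p of 0.01, the replicate block and leaving out each library. Leaving out both IFNγ libraries numbered 1, removing length and GC trends, and the block without the minimum were chosen after seeing the data.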

Additional observations from a re-analysis of the deposited data

Results flagged for a closer look

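The effect of IFNγ differed between siRNA states in limma with the replicate block for 3 named genes, which did not pass in the same fit without the block. Of all tested genes 2.16% passed this test with the block and 0.947% without it. Without the minimum, as fitted for NGFR, 0.486% of gene IDs passed without the block. KIT changed with IFNγ by 0.48 more on the log2 scale in siMITF than in siCTRL cells (adjusted p = 0.0259 with the block, 0.598 without). EPHA5 did so by 0.59 (adjusted p = 0.0275 with the block, 0.472 without), and it also passed without the block with median centring (0.61, adjusted p = 0.0419). NGFR, fitted without the minimum of 2 TPM, changed by -0.50 (adjusted p = 0.0444 with the block, 0.0733 without). At the siCTRL level of 0.138 TPM the pseudocount of 1 leaves little room for a fall of NGFR on this scale, so this difference is in part set by the pseudocount; the ratio of the means with IFNγ was 0.814 in siCTRL and 0.532 in siMITF cells. All 3 IFNγ libraries in siMITF cells lay above all 3 without IFNγ for KIT and EPHA5, and below them for NGFR.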

How the results depend on the processing

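The calls of KIT, MET, ERBB3 and EPHA2 with siMITF kept their direction and stayed under the threshold in all 28 alternatives in both IFNγ states. ERBB3 with IFNγ in siMITF cells was called in 17 of 28. Depth is unknown, so limits from counting could not be set, and 3 libraries per condition limit the precision. The causes of the changes below were not tested.

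With the replicate block, which pairs libraries by number, the count of tested receptors called was 4 of 6 for IFNγ in siMITF cells (2 without it) and 1 for the interaction (0 without it), and the counts of all genes called were 3281 for IFNγ in siCTRL cells (1652), 4556 in siMITF cells (2574) and 276 for the interaction (121); it changed no other call of the 6 receptors beyond those given beside the results. The receptors called for IFNγ in siMITF cells numbered 4 with quantile normalization, median centring, and length and GC trends removed with the block, 1 with no minimum, no intensity trend or an adjusted p of 0.01, and 1 to 2 when single libraries were left out. With length and GC trends removed and the block they numbered 3 for IFNγ in siCTRL cells and 1 for the interaction, and genes called 3620, 5039 (siMITF cells) and 295 (interaction).

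Genes called for siMITF with IFNγ were 2736 with only the conditions compared and 2774 at 0.01. For IFNγ in siCTRL cells they were 2825 with quantile normalization, 2814 with median centring, 1078 with only the conditions compared, 2497 without the minimum with the block, 867 at 0.01, and 1054 to 2049 when single libraries were left out. For IFNγ in siMITF cells they were 3996 with quantile normalization, 3869 without the minimum with the block, 1408 at 0.01, and 1647 to 3133 when single libraries were left out. For the interaction they were 68 with a pseudocount of 0.1, 65 with a mean of 5 TPM, 294 with quantile normalization, 263 with median centring, 217 without mitochondrial genes, 60 at 0.01, and 70 to 125 when single libraries were left out.

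Signs that turned belonged to changes that passed in neither fit. When single libraries were left out, IGF1R ran from -0.21 to 0.20 with siMITF, from -1.23 to 0.12 with siMITF under IFNγ, from -0.48 to 0.54 and from -1.06 to 0.04 with IFNγ in siCTRL and siMITF cells, and from -1.22 to 0.13 in the interaction, and with IFNγ in siCTRL cells MET ran from -0.28 to 0.07 and EPHA2 from -0.15 to 0.16. IGF1R with siMITF went from -0.01 to 0.14, 0.03 and 0.20 without siCTRL replicate 2, siCTRL replicate 3 and siMITF replicate 1. With siMITF under IFNγ it went to 0.12, with IFNγ in siMITF cells to 0.04 and in the interaction to 0.13 without siMITF + IFNγ replicate 1. With IFNγ in siCTRL cells IGF1R went to 0.06 without siCTRL replicate 2 and to 0.54 without siCTRL + IFNγ replicate 1; without both IFNγ libraries numbered 1 it was 0.54 in siCTRL cells and 0.04 in siMITF cells. MET with IFNγ in siCTRL cells went to 0.07 without siCTRL + IFNγ replicate 1 or both. EPHA2 there went to -0.07 without siCTRL replicate 1, to -0.15 without siCTRL + IFNγ replicate 2, and to -0.08 with length and GC trends removed, with and without the block.

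In the exact permutation tests of receptors under 2 TPM, the mean log2 difference of AXL with IFNγ (-0.0804, p = 0.055) passed at a pseudocount of 0.1 (-0.331, p = 0.035) or 0.5 (-0.138, p = 0.045) and with quantile normalization (-0.0974, p = 0.015), and ran from -0.113 to -0.0516 when single libraries were left out, passing without siCTRL replicate 1, siCTRL replicate 3 or siMITF + IFNγ replicate 2. By the same exact test, EGFR with siMITF (0.0396, p = 0.025) did not pass with quantile normalization (0.0381, p = 0.075), the replicate block (0.0396, p = 0.0625) or without both IFNγ libraries numbered 1 (0.0504, p = 0.0667), and ran from 0.0238 to 0.0487; with IFNγ (0.0151) it ran from -0.000611 without siMITF + IFNγ replicate 2 to 0.0282. The exact test of NGFR with IFNγ (-0.285, p = 0.025) did not pass without both libraries (-0.243, p = 0.05). That exact test of PDGFRB with IFNγ (0.135, p = 0.02) did not pass with the block (0.135, p = 0.0625) and ran from 0.0948 to 0.17; with siMITF (0.0113) it ran from -0.0243 without siCTRL + IFNγ replicate 3 to 0.0512, and was -0.00134 without siMITF replicate 3 and -0.019 without siMITF + IFNγ replicate 2.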
